A study of Homo sapiens with 30 samples.

Results

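The genes of homologous recombination and the Fanconi anaemia pathway were followed as a set of 43, picked by symbol as the rows of a raw read count table whose Ensembl identifiers belong to those symbols. All 43 were found among the 39359 genes of the table, and all 43 passed the filter on low counts, which left 21335 genes to be tested. The RNA came from H1299, a human lung carcinoma line that lacks p53 on both alleles, transiently transfected with 1 of 4 plasmids and sorted for GFP after 6 h or 24 h. The plasmid pGFP carried GFP alone. The other plasmids added p53 as wild type, as the RW mutant (an arginine to tryptophan change at a hot spot of the DNA-binding domain) or as p53 O6-meG, which is the wild type sequence with an O6-methylguanine on the template strand of that same codon. The alkyltransferase AGT removes this lesion. Cultures named p53 TM (transcriptional mutagenesis) received the p53 O6-meG plasmid and 10 µM O6-bzG, an AGT inhibitor dissolved in DMSO, added before transfection, to keep the lesion in place, from which part of the transcripts would code for the mutant. Whether the other cultures received DMSO is not given in the sources used here. Each of the 10 groups (5 conditions at 2 times) had 3 biological replicates, 30 libraries in all. Every group therefore shares the p53-null background, the transfection, expression from TRE-tight promoters and the GFP sort, and all values describe plasmid expression in 1 cell line.

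Homologous recombination copies an intact sister chromatid to repair a double-strand break. MRE11, RAD50 and NBN trim the broken ends, EXO1 and DNA2 extend the single strands, BRCA1, PALB2 and BRCA2 load the recombinase, and a group of paralogs, motor proteins and annealing factors guides the strand exchange before helicases and nucleases take the joined molecules apart. The Fanconi pathway handles cross-links between the strands: a core complex with the conjugating enzyme UBE2T attaches ubiquitin to the FANCD2 and FANCI clamp, which then recruits nucleases. Many of these genes, though not all, are known to be transcribed mainly in S and G2 phase through E2F and related factors, and p53 is known to lower many S phase genes by way of CDKN1A (p21).

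Read totals on genes ran from 32302699 to 71950532 a library (median 44424643). For 1 library each of p53 O6-meG and p53 TM at 6 h, both numbered replicate 2, the title gives 1 group and then the other in parentheses, and their levels lie against the group used here. CDKN1A, a strong p53 target, stood at 50.3 CPM (counts scaled per library to a common size after TMM) in the library labelled p53 O6-meG and at 251 CPM in the library labelled p53 TM, against 262 to 270.3 CPM and 58.2 to 66.2 CPM in the other libraries of those groups. Both were left out of the main fit, which used 28 libraries, and results at 6 h for these groups are given with and without them. Of epithelial genes, KRT8 was at 111 to 182 CPM and KRT18 at 274 to 724 CPM in the 28 libraries, while EPCAM did not pass 0.383 CPM. The mesenchymal filament gene VIM was at 1945 to 3601 CPM. The lung lineage genes NKX2-1 and SFTPC did not pass 1.2025 and 0.108 CPM, and the blood and endothelial genes PTPRC and PECAM1 did not pass 0.0503 and 1.01 CPM.

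The first comparison asks what wild type p53 did to these genes after 24 h. With p53 wild type, 28 of the 43 genes were lower than with pGFP, 5 were higher and 10 did not pass an adjusted P of 0.05. Of all genes tested, 14.5% were lower and 20.5% higher. The median log2 change of the 43 was −0.43, against 0.01 for all genes tested. The changes were graded rather than large: the 28 lower genes lay between −0.26 (FAN1) and −0.93 (BRCA2) on the log2 scale, and 0 of the 43 reached a 2-fold change in either direction, which 1.99% of all genes did downwards and 9.22% upwards. All 3 wild type libraries lay below all 3 pGFP libraries for 30 genes and above them for 6, and the groups overlapped for 7. Separation did not mean a call: PALB2 and RMI1 lay below and FANCE above without passing. The same count over all genes tested was not made, so these numbers have no share to be set against. At 6 h, where 0 genes passed as lower, the wild type libraries still lay below for 10 genes and above for 8. In RNA pooled from the GFP-sorted cells of a culture, fewer cells that express a gene and less RNA per cell cannot be told apart. S phase and G2/M genes moved in the same libraries: 12 of 14 were lower and 2 higher (PCNA and E2F7), with a median log2 change of −0.56 and a range of −1.55 (CCNE2, cyclin E2) to 0.78 (PCNA). Their part in the change of the 43 was not tested.

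**Figure D1:**
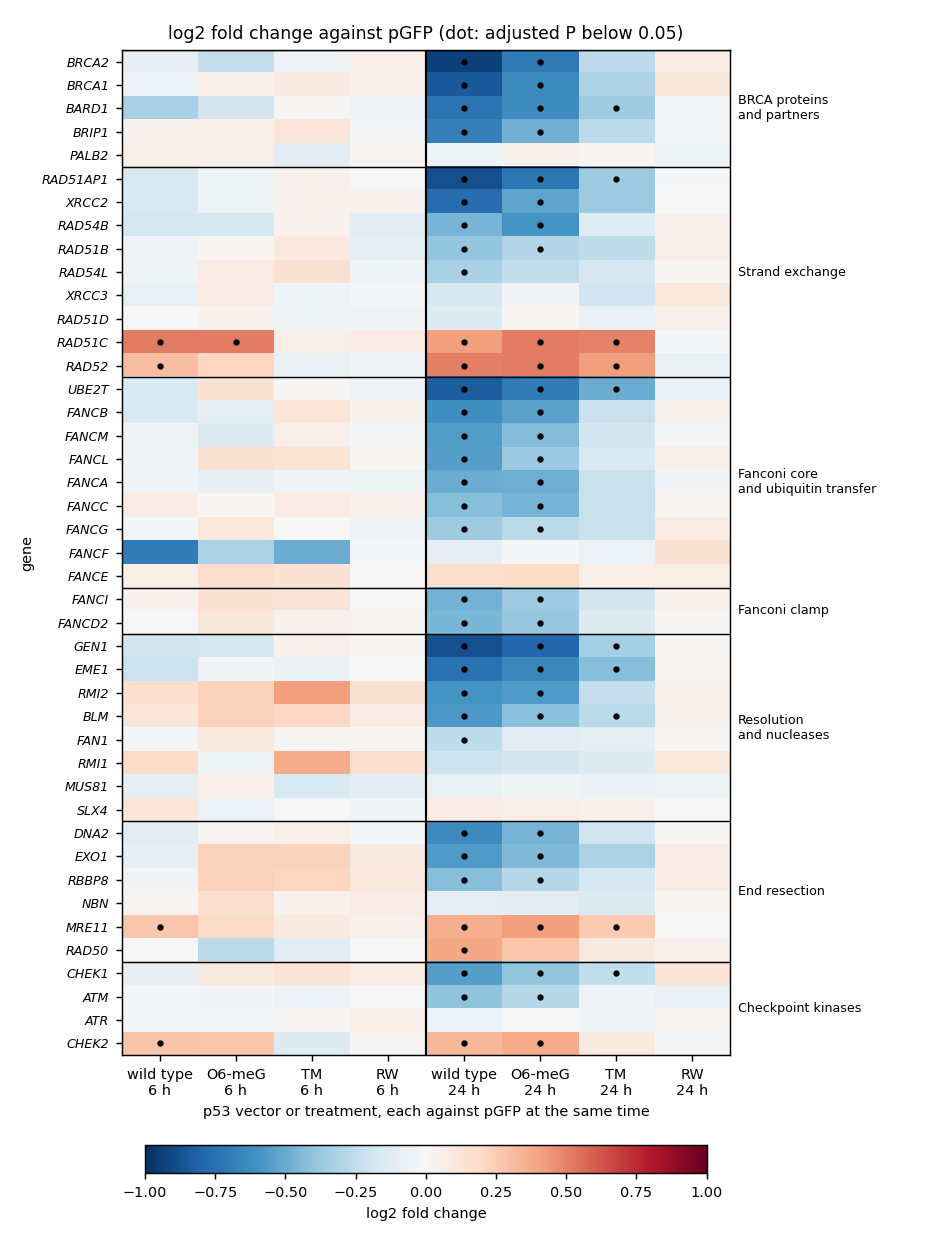
Log2 fold change of each of the 43 genes (rows, by role) against pGFP at the same time for 4 p53 conditions at 6 h and 24 h (columns), with a dot where the adjusted P is below 0.05. Most cells are blue in the 24 h columns of p53 wild type (28 lower, 5 higher) and p53 O6-meG (26 lower, 4 higher). The column of p53 TM at 24 h is paler (7 lower, 3 higher), and the RW mutant columns hold no dot.

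Among the BRCA proteins and partners 4 of 5 genes were lower. BRCA2 (chr13:32315086-32400268, hg38), which carries the recombinase to resected DNA, was counted at 84.8, 81.6 and 76.4 CPM in the 3 pGFP libraries and at 36.2, 43.9 and 47.2 CPM with p53 wild type. The groups were far apart, and the level with p53 was 52.4% of that with pGFP (log2 change −0.93 ± 0.10 (SE), adjusted P = 4.6e-08, n = 3 libraries a group here and below). BRCA1 (chr17:43044295-43170245), the ubiquitin ligase that directs repair towards recombination, gave 70.0, 65.7 and 63.9 CPM with pGFP and 29.7, 38.7 and 43.4 CPM with p53 wild type, with no overlap (log2 change −0.84 ± 0.12 (SE), adjusted P = 3.5e-06). BRIP1 (chr17:61679139-61863559), a helicase bound to BRCA1, went from 63.6, 58.8 and 52.8 CPM to 39.1, 34 and 36.2 CPM (log2 change −0.68 ± 0.09 (SE), adjusted P = 9.1e-07). BARD1, the obligate partner of BRCA1, fell alongside it (log2 change −0.74 ± 0.11 (SE), adjusted P = 8.1e-06). PALB2, which bridges BRCA1 and BRCA2, was the exception, at 22.1, 21.6 and 21.5 CPM with pGFP and 21.4, 20.6 and 21.4 CPM with p53 wild type (log2 change −0.04 ± 0.07 (SE), adjusted P = 0.73).

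The strand exchange genes went in both directions, with 5 of 9 lower, 2 higher and 2 that did not pass. RAD51AP1 (chr12:4538798-4560047), which helps the recombinase invade the partner duplex, was at 86.9, 92.6 and 78.2 CPM with pGFP and at 43.5, 43.5 and 53.1 CPM with p53 wild type (log2 change −0.88 ± 0.10 (SE), adjusted P = 6.7e-08). The paralog XRCC2 fell to 58.9% of its pGFP level (log2 change −0.76 ± 0.12 (SE), adjusted P = 2e-05), and RAD54B, RAD51B and RAD54L fell by less, with log2 changes of −0.47, −0.38 and −0.32. RAD54B shares 3511 exon bases with FSBP on its own strand, so its counts are uncertain. Against these stood RAD51C (chr17:58692573-58735611), a paralog that belongs to the same complex as XRCC2. It rose from 68.2, 62.9 and 63.6 CPM to 93.8, 87 and 77.3 CPM, with no overlap (log2 change 0.41 ± 0.07 (SE), adjusted P = 2e-05). RAD52 (chr12:911736-990053), which anneals complementary single strands, rose as well, from 28.9, 27.6 and 27.5 CPM to 45.4, 36.5 and 37.4 CPM (log2 change 0.51 ± 0.10 (SE), adjusted P = 0.00014). RAD51D and XRCC3 gave log2 changes of −0.13 and −0.16, and XRCC3 overlaps KLC1 on the opposite strand over 5756 exon bases.

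Of the Fanconi core and ubiquitin transfer genes 7 of 9 were lower and 0 higher. UBE2T, the conjugating enzyme of the pathway, fell to 56.4% of its pGFP level (log2 change −0.83 ± 0.13 (SE), adjusted P = 1.5e-05). FANCB (chrX:14690388-14873255), a core subunit beside the ligase, was at 20.9, 22.6 and 21.3 CPM with pGFP and at 12.1, 13.7 and 16.6 CPM with p53 wild type (log2 change −0.61 ± 0.09 (SE), adjusted P = 2.5e-06). FANCL, the ligase itself, and FANCM, the translocase that anchors the core complex at the fork, gave log2 changes of −0.55 and −0.56. FANCA, FANCC and FANCG fell by 0.49, 0.43 and 0.35 on the same scale, the first with 2409 exon bases over ZNF276 on the opposite strand. FANCE and FANCF did not pass: FANCE gave 0.16 ± 0.08 (SE) and FANCF −0.08 ± 0.26 (SE). FANCF was counted below 1 CPM in all 6 libraries of this comparison, so its change is known least well.

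Both clamp genes were lower by similar amounts. FANCD2 (chr3:10026370-10101932) was counted at 101, 100.4 and 94.7 CPM with pGFP and at 65.5, 76.3 and 73.6 CPM with p53 wild type (log2 change −0.46 ± 0.07 (SE), adjusted P = 3.5e-06). FANCI (chr15:89243945-89317261) went from 114, 118 and 116 CPM to 75.7, 87.6 and 87.4 CPM (log2 change −0.47 ± 0.07 (SE), adjusted P = 2.7e-06). For both genes all 3 wild type libraries lay below all 3 pGFP libraries.

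Genes of resolution and cross-link nucleases were lower in 5 of 8 cases and higher in 0. GEN1 (chr2:17753858-17788946), which cleaves Holliday junctions, was at 55.1, 51.6 and 48 CPM with pGFP and 23.8, 27.3 and 33 CPM with p53 wild type, 54.4% of the pGFP level (log2 change −0.88 ± 0.09 (SE), adjusted P = 4.2e-08). The Bloom helicase BLM (chr15:90717346-90816166), which dissolves double junctions, went from 46.5, 49.4 and 43.5 CPM to 31, 29.8 and 32.9 CPM (log2 change −0.57 ± 0.07 (SE), adjusted P = 3.7e-07). EME1, the partner of the nuclease MUS81, gave a log2 change of −0.75 ± 0.11 (SE), adjusted P = 6.5e-06, while MUS81 was −0.07 ± 0.07 (SE), adjusted P = 0.49. RMI2 fell (log2 change −0.60 ± 0.11 (SE), adjusted P = 6.9e-05) and its partner RMI1 did not pass (−0.21 ± 0.12 (SE), adjusted P = 0.18). FAN1 fell by 0.26, and the scaffold SLX4 gave 0.08 ± 0.11 (SE). FAN1 shares 1507 exon bases with MTMR10 on the opposite strand.

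Of the end resection genes 3 of 6 were lower, 2 higher and 1 did not pass. DNA2 (chr10:68414064-68472121), a nuclease of long-range resection, was at 45.8, 42.6 and 40.4 CPM with pGFP and at 27.8, 26.8 and 28.2 CPM with p53 wild type (log2 change −0.64 ± 0.08 (SE), adjusted P = 2.7e-07). EXO1, the other long-range nuclease, and RBBP8 (CtIP), the cofactor of MRE11, fell by 0.56 and 0.43 on the log2 scale. MRE11 (chr11:94415570-94493885), the nuclease that starts resection, rose from 59.4, 63.4 and 57.1 CPM to 88, 73.7 and 69.2 CPM (log2 change 0.36 ± 0.08 (SE), adjusted P = 0.0011). Of its partners, RAD50 gave 0.39 ± 0.12 (SE), adjusted P = 0.015 and NBN −0.09 ± 0.11 (SE), adjusted P = 0.58. RAD50 shares 8124 exon bases with another annotated gene on its own strand and was counted at 5.80 to 9.21 CPM in these 6 libraries, so its rise is uncertain. The call was lost with no filter on counts, in a fit of the compared groups alone, and without pGFP replicate 1 or p53 wild type replicate 3.

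Checkpoint kinases gave 2 lower, 1 higher and 1 that did not pass. CHEK1 (chr11:125625163-125676255), the effector kinase of stalled forks, went from 94.3, 95.1 and 92.6 CPM to 57.8, 62.2 and 72.6 CPM (log2 change −0.55 ± 0.08 (SE), adjusted P = 3.8e-06). ATM (chr11:108223044-108369102), which signals double-strand breaks and phosphorylates p53, went from 169, 147 and 149 CPM to 106, 121 and 124 CPM (log2 change −0.41 ± 0.08 (SE), adjusted P = 0.00021). CHEK2 (chr22:28687743-28742422), the effector of ATM, rose from 23.3, 23.5 and 24.8 CPM to 29.7, 32.4 and 28.3 CPM (log2 change 0.33 ± 0.08 (SE), adjusted P = 0.0022). ATR, the upstream kinase of CHEK1, was −0.06 ± 0.06 (SE), adjusted P = 0.49. Thus for both kinase pairs 1 partner fell, while the other rose or did not pass.

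**Figure D2:**
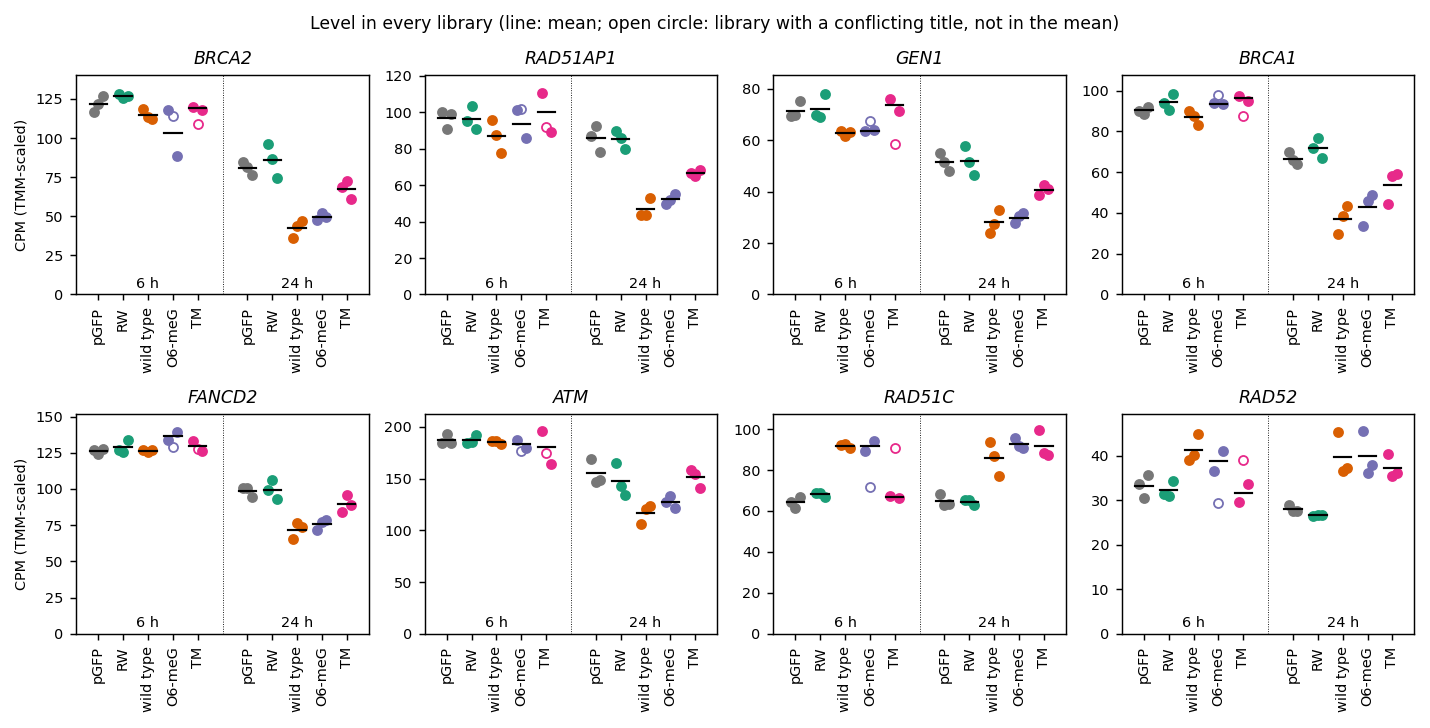
Level in CPM after TMM scaling (vertical axes from 0) of 8 genes in every library at 6 h (left of the dotted line) and 24 h (right), with a line at each group mean and open circles for the pair of libraries with conflicting titles, which are not in the mean. BRCA2, RAD51AP1, GEN1, BRCA1, FANCD2 and ATM are lowest with p53 wild type at 24 h, whereas RAD51C and RAD52 are raised with p53 wild type at both times.

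Promoters of the set were searched for 3 short motifs known from cell cycle genes, since many of the genes moved together. The sequences are RefSeq windows on GRCh38.p14 from 250 bases before to 50 after 1 start per gene, which exist here for 38 of the 43 genes (not for DNA2, RMI2, RAD54B, NBN and FANCI). The forms taken as an E2F core were TTCCCGC as the first, TTGGCGC as the second, TTGCCGC as the next and TTCGCGC as the last. An exact E2F core on either strand was found in 19 of 38, among them 14 of the 24 lower genes with a window and 1 of the 5 higher genes. The same core was found in 13.1% of all 27305 promoters of the table, in 19.8% of the 12920 tested genes with a window and in 582 of the 2331 of those that were lower with p53 wild type. With only the 250 bases before the start it was found in 10 of 38 (26.3%), against 16.8% of the tested genes. CCAAT on either strand was found in 16 of 38 (42.1%), against 36.1% of the tested genes and 35.7% of all promoters. By direction, it was in 9 of the 24 lower genes, 2 of the 5 higher genes and 5 of the 9 that did not pass. A CHR element (TTTGAA or TTCGAA) was found in 4 of 38 (10.5%), against 11.5% of the tested genes and 16.6% of all promoters, and all 4 were among the 24 lower genes (16.7%). These shares are descriptions with no test, and an exact match is not a bound site. The 3 windows here show a lower gene with E2F and CCAAT matches, a lower gene with CCAAT matches in its window, and the higher gene RAD51C, which holds none of the 3 motifs. They are examples and not a contrast between directions. The higher genes MRE11, CHEK2 and RAD52 held matches, and the lower genes BRCA1 and BRCA2 held none in the 1 window used for each. For BRCA1, on the minus strand, the bases before the start used (chr17:43170328-43170477) lay beyond the annotated gene, which ends at 43170245. Other starts of BRCA1 were not searched, so its window does not speak for them. The 3 windows have a common form. Each is 150 bases, 5′ to 3′ on the gene's strand, and ends at the last base outside the annotated gene. Capitals mark motif matches as they read on the printed strand, so that CCAAT on the other strand appears as ATTGG.
BLM (chr15:90717196-90717345, plus strand): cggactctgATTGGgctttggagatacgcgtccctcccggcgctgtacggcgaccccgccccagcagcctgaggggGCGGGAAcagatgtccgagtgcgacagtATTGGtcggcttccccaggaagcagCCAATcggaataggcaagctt
BRIP1 (chr17:61863560-61863709, minus strand): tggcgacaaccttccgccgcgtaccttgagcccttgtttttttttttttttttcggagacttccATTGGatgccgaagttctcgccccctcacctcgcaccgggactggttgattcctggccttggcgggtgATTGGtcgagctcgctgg
RAD51C (chr17:58692423-58692572, plus strand): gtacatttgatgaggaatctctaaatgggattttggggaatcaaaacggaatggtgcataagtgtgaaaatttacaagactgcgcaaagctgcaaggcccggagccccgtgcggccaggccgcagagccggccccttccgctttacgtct
In BLM an E2F core begins 74 bases before the start, with CCAAT matches beginning 141, 46 and 21 bases before it, and further E2F cores lie after the start. BRIP1 carries its E2F core just after the start, outside the printed window.

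At 6 h the picture with p53 wild type was different. No gene was lower at an adjusted P of 0.05 by the main edgeR test (2 at an unadjusted P of 0.05, and 2 by DESeq2), where 1.59% of all genes were, and 4 of 43 were higher, where 8.68% of all genes were: RAD51C, CHEK2, MRE11 and RAD52. The count of higher genes was close to the share of all genes, so it does not set the 43 apart. Shares of all genes at an unadjusted P or by DESeq2 are not given here. The median log2 change was −0.03. RAD51C was counted at 64.6, 61.2 and 67 CPM with pGFP and at 92.3, 92.9 and 90.8 CPM with p53 wild type, with no overlap (log2 change 0.52 ± 0.07 (SE), adjusted P = 2.3e-06). CHEK2 went from 32.2, 32.8 and 30.5 CPM to 39.7, 37.4 and 38.9 CPM, a log2 change of 0.28 ± 0.08 (SE), adjusted P = 0.022. For MRE11 the levels were 80.2, 79.2 and 81.3 CPM and 98.8, 94.8 and 96.4 CPM (log2 change 0.27 ± 0.08 (SE), adjusted P = 0.031). For RAD52 they were 33.7, 30.5 and 35.8 CPM and 39, 40.3 and 44.8 CPM (log2 change 0.31 ± 0.09 (SE), adjusted P = 0.032). Each of the 4 rose without overlap between groups, and RAD51C passed in every alternative tried. Only 1 gene was higher with DESeq2 size factors, with no filter on counts, and without pGFP replicate 1, RW mutant replicate 3, or p53 wild type replicate 1 or 3 of 6 h. BARD1 had a log2 change of −0.32 ± 0.11 (SE), adjusted P = 0.065 in this fit, and FANCF −0.70 ± 0.24 (SE), adjusted P = 0.07. Both passed as lower with DESeq2 and with the replicate number as a block. BRCA2 at 6 h was at 117, 122 and 127 CPM with pGFP and 118, 113 and 112 CPM with p53 wild type, and BRCA1 at 90.2, 88.7 and 92.1 and 89.9, 87.5 and 83.2 CPM.

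The difference between the times was tested directly as the change with p53 wild type at 24 h minus that at 6 h. It was negative and passed for 19 of 43 genes and positive for 0, where 2.77% of all genes passed downwards and 3.73% upwards. The 19 numbered 13 to 22 when 1 library was left out, with 13 without pGFP 6 h replicate 2, and 28 with the replicate block. BRCA2 had the lowest value at −0.85 ± 0.14 (SE), adjusted P = 0.00068, followed by BRCA1 at −0.78 ± 0.17 (SE), adjusted P = 0.0054 and RMI2 at −0.77 ± 0.15 (SE), adjusted P = 0.0022. BLM gave −0.69 ± 0.10 (SE), adjusted P = 0.00019. RAD51C, RAD52, MRE11 and CHEK2 gave −0.11, 0.19, 0.09 and 0.05, none of which passed. The 95% interval of the difference for RAD51C was −0.29 to 0.07.

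The genes also changed with time alone, in cells with pGFP. At 24 h 33 of 43 were lower than at 6 h and 0 higher, where 22.3% and 19.0% of all genes were. XRCC3 had the lowest value, with 248, 238 and 212 CPM at 6 h and 93.2, 100.4 and 109.7 CPM at 24 h (log2 change −1.20 ± 0.11 (SE), adjusted P = 9.6e-09), and its overlap with KLC1 leaves the source of its reads uncertain. EXO1 went from 66.2, 64 and 64 CPM to 30.4, 33.7 and 30.0 CPM (log2 change −1.04 ± 0.11 (SE), adjusted P = 5.2e-08). ATR, which did not pass with p53 at either time, fell by 0.72 over this interval. RAD51C (0.01 ± 0.07 (SE), adjusted P = 0.89) and UBE2T (0.06 ± 0.13 (SE), adjusted P = 0.76) were the only 2 genes with a positive value, and neither passed. Time after transfection, transfection efficiency and culture density cannot be told apart here.

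p53 O6-meG, the lesion plasmid in cells with active AGT, was compared with pGFP and then with p53 wild type at 24 h. Against pGFP 26 of 43 genes were lower and 4 higher, where 11.3% and 18.1% of all genes were, and the median log2 change was −0.37. GEN1 was at 27.7, 30.5 and 31.7 CPM (log2 change −0.78 ± 0.09 (SE), adjusted P = 3.2e-07), RAD51AP1 at 49.5, 51.7 and 55.1 CPM and BRCA2 at 47.6, 52 and 49.3 CPM. The 4 higher genes were RAD51C (log2 change 0.51), RAD52 (0.51), MRE11 (0.41) and CHEK2 (0.37). Compared directly with p53 wild type, 0 of 43 genes passed in either direction by edgeR, where 0.00937% of all genes were lower and 0.0% higher. The absence of calls was thus shared by nearly all genes tested. At an unadjusted P of 0.05, 5 of the 43 were higher, and the share of all genes at that level is not given here. The difference was 0.23 for BRCA2 (95% interval 0.03 to 0.42) and 0.09 for GEN1 (−0.09 to 0.28). Both comparisons with pGFP share its libraries.

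The question for p53 TM is how the responses to wild type p53 changed when the lesion was left in place. At 24 h 7 of 43 genes were lower than with pGFP and 3 higher, where 1.68% and 9.0% of all genes were, with a median log2 change of −0.18. Of the S phase and G2/M genes 6 of 14 were lower and 2 higher here. The 7 were UBE2T, EME1, RAD51AP1, BARD1, GEN1, BLM and CHEK1, with log2 changes of −0.49 to −0.25, and the 3 were RAD51C, RAD52 and MRE11. MRE11 lost its call with DESeq2, with its size factors, with either other count filter and in a fit of the compared groups alone. The lower count depended on the fit: 21 with the replicate number as a block, 19 with DESeq2, 2 without pGFP replicate 2 or p53 TM replicate 1 and 16 without p53 wild type replicate 1, which is no library of this comparison. The share of all genes under each of these fits is not given here. BRCA2 was counted at 68.8, 72.3 and 61.1 CPM with p53 TM, between the 36.2 to 47.2 CPM of p53 wild type and the 76.4 to 84.8 CPM of pGFP (log2 change against pGFP −0.26 ± 0.10 (SE), adjusted P = 0.097).

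Compared directly with p53 wild type, 20 of 43 genes were higher with p53 TM and 1 was lower, where 9.29% and 11.9% of all genes were. S phase and G2/M genes moved in the same libraries, with 6 of 14 higher and 0 lower, a median log2 difference of 0.15 and a range of −0.21 (PCNA) to 1.11 (CCNE2), and their part in the difference was not tested. Among the 43, BRCA2 gave the largest difference, at 159% of its level with p53 wild type (log2 difference 0.67 ± 0.10 (SE), adjusted P = 4e-05). GEN1 was at 38.7, 42.4 and 41 CPM with p53 TM and 23.8, 27.3 and 33 CPM with p53 wild type (log2 difference 0.54 ± 0.09 (SE), adjusted P = 0.00021). DNA2 was at 37.5, 37.6 and 36.9 CPM against 27.8, 26.8 and 28.2 CPM (log2 difference 0.44 ± 0.08 (SE), adjusted P = 0.00023). RAD51AP1 was at 66.4, 65.1 and 68.4 CPM against 43.5, 43.5 and 53.1 CPM (log2 difference 0.51 ± 0.10 (SE), adjusted P = 0.00046). In these 4 genes all 3 p53 TM libraries lay above all 3 wild type libraries. BRCA1 was at 44.4, 58 and 58.9 CPM (log2 difference 0.53 ± 0.12 (SE), adjusted P = 0.0022) and BRIP1 at 54, 47.2 and 45.3 CPM (log2 difference 0.42 ± 0.09 (SE), adjusted P = 0.0012). FANCD2 was at 84.1, 96 and 88.7 CPM, FANCI at 98.3, 105 and 102 CPM and FANCB at 18.4, 19 and 18 CPM, with log2 differences of 0.32, 0.29 and 0.39. BLM and CHEK1, with 36.2, 40.1 and 39.5 CPM and 73.4, 83.3 and 80.7 CPM, each differed by 0.31 and 0.30.

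Some genes that were higher with p53 TM than with p53 wild type overlapped the pGFP libraries, among them FANCD2, BRIP1, FANCL, FANCM and RAD54B. ATM did so as well, and its level with p53 TM was near that of pGFP. Its 3 p53 TM libraries gave 159, 155 and 141 CPM against 169, 147 and 149 CPM with pGFP and 106, 121 and 124 CPM with p53 wild type. The log2 difference was 0.37 ± 0.08 (SE), adjusted P = 0.0014 against p53 wild type and −0.03 ± 0.08 (SE), adjusted P = 0.89 against pGFP, and the small value against pGFP changed sign when pGFP replicate 1 or p53 TM replicate 3 was left out.

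The 4 genes that p53 wild type raised at both times gave these values with p53 TM. RAD51C had a high level at 99.5, 88.5 and 87.3 CPM, with a log2 difference from p53 wild type of 0.09 ± 0.07 (SE), adjusted P = 0.36 and a 95% interval of −0.04 to 0.22. RAD52 was at 40.4, 35.4 and 36.2 CPM (log2 difference −0.09 ± 0.09 (SE), adjusted P = 0.57) and MRE11 at 81.2, 69.4 and 65.6 CPM (log2 difference −0.09 ± 0.08 (SE), adjusted P = 0.47), and for both the sign of the difference turned without p53 wild type replicate 1. CHEK2 was lower with p53 TM, at 24.7, 26.9 and 24.6 CPM against 29.7, 32.4 and 28.3 CPM (log2 difference −0.25 ± 0.08 (SE), adjusted P = 0.034). That call was lost with 30 libraries as labelled, with no filter on counts, in a fit of the compared groups alone, and without any of several single libraries, among them p53 TM replicates 1 and 3 and p53 wild type replicates 1 and 2.

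The count of 20 higher genes was 25 with the replicate block, 14 without p53 TM replicate 2 or p53 wild type replicate 1, and 7 in a fit of the compared groups alone. Shares of all genes under these fits are not given here, and why the counts moved was not tested. Against p53 O6-meG, the same plasmid without O6-bzG, 10 of 43 genes were higher with p53 TM (3.47% of all genes) and 1 was lower (6.58%). BRCA2 (0.44 ± 0.10 (SE), adjusted P = 0.0055), FANCD2 (0.24 ± 0.07 (SE), adjusted P = 0.018) and ATM (0.25 ± 0.08 (SE), adjusted P = 0.042) were among the 10. This count was 17 with the replicate block, 4 without p53 O6-meG replicate 1, p53 TM replicate 2 or p53 TM replicate 3, and 0 in a fit of the compared groups alone. An effect of O6-bzG or of its solvent that does not pass through p53 cannot be told apart in these groups, since no other group received O6-bzG and the solvent of the other cultures is not given.

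**Figure D3:**
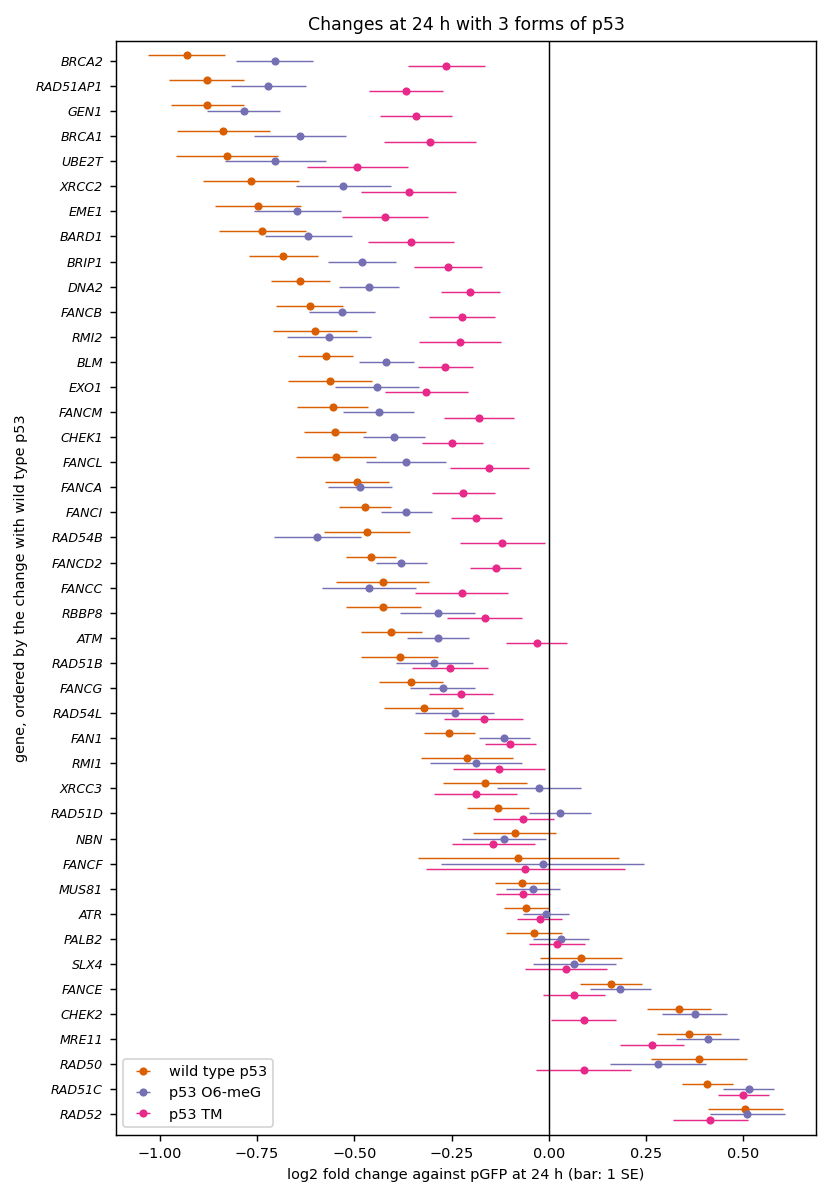
Log2 fold change against pGFP at 24 h (horizontal axis, bars of 1 SE) of the 43 genes with p53 wild type, p53 O6-meG and p53 TM, ordered by the change with p53 wild type. Points of p53 TM lie nearer to 0 than those of p53 wild type for most of the lower genes (median −0.18 against −0.43), while RAD51C is at 0.50 with p53 TM and 0.41 with p53 wild type.

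At 6 h p53 O6-meG raised 1 of 43 genes, RAD51C, and lowered 0, where 4.32% and 0.53% of all genes passed. Its libraries gave 89.1 and 94.4 CPM (log2 change 0.51 ± 0.07 (SE), adjusted P = 2.5e-05). The library with a conflicting title that is labelled p53 O6-meG gave 71.5 CPM. With it and its counterpart as labelled the log2 change was 0.40 (adjusted P = 0.066), and with the other grouping 0.51 (adjusted P = 2.2e-06). With the replicate number as a block 5 genes were higher (BLM, CHEK2, FANCE and RBBP8 beside RAD51C), and without p53 O6-meG replicate 1 of 6 h 2 were lower (BRCA2 and RAD50). A second gene, CHEK2, was higher without RW mutant replicate 2 of 24 h. With p53 TM at 6 h 0 of 43 genes passed by edgeR, where 0.192% of all genes were higher and 0.00937% lower. At an unadjusted P of 0.05, 3 of the 43 were higher, and the share of all genes at that level is not given here. RAD51C was at 67.5 and 66.2 CPM in the 2 libraries used, next to the pGFP range of 61.2 to 67 CPM, and at 90.8 CPM in the library with a conflicting title that is labelled p53 TM. DESeq2 and the replicate block each called RMI2 alone.

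The RW mutant changed none of the 43 genes at an adjusted P of 0.05 at either time, by edgeR or DESeq2, and 0 passed at an unadjusted P of 0.05. Of all genes tested, 0.00469% were higher and 0.0% lower at each time. Log2 changes of the 43 lay between −0.07 and 0.15 at 24 h and between −0.12 and 0.16 at 6 h. BRCA2 was at 96.2, 86.8 and 74.6 CPM and RAD51C at 65.2, 65.3 and 63.1 CPM with the RW mutant at 24 h, in the range of or next to the pGFP libraries.

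Replicates differed in the depth of the response. The median of the 43 log2 ratios to the pGFP mean was −0.58, −0.40 and −0.33 in the 3 wild type libraries at 24 h, −0.45, −0.30 and −0.27 with p53 O6-meG, and −0.23, −0.11 and −0.19 with p53 TM, in the order of the replicate numbers. The RW mutant gave 0.02, 0.10 and −0.04. Replicate 1 was the lowest in each of the 3 groups with active p53. At 6 h the same median lay between −0.07 and 0.10 in all libraries.

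**Figure D4:**
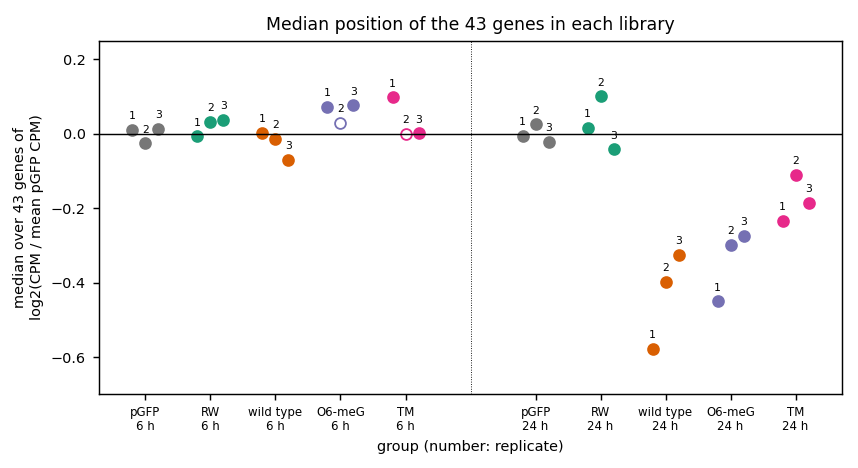
Median over the 43 genes of log2(CPM / mean pGFP CPM at the same time) in each library (points, numbered by replicate) of the 10 groups at 6 h and 24 h, with open circles for the libraries with conflicting titles. Wild type libraries at 24 h sit lowest, from −0.58 to −0.33, p53 TM libraries lie between −0.23 and −0.11, and the RW mutant is around 0.

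Lists of neighbouring genes were counted in the same fit. Of 30 other genes of recombination, Fanconi and checkpoint signalling, 12 were lower and 2 higher with p53 wild type at 24 h, with a median log2 change of −0.13, against the same 14.5% and 20.5% of all genes. FIGNL1, a regulator of the recombinase (−0.87 (adjusted P = 6e-06)), CLSPN, the mediator of CHEK1 activation (−0.56 (adjusted P = 0.00064)), TOPBP1, the activator of ATR (−0.55 (adjusted P = 3.7e-06)), and USP1, the deubiquitinase of FANCD2 (−0.50 (adjusted P = 1.3e-05)), had the lowest log2 changes, and FAAP20, a core complex subunit, was higher (0.48 (adjusted P = 0.00012)). Of 13 end joining genes 4 were lower and 0 higher, with a median of −0.09. Among them were POLQ, the polymerase of theta-mediated joining (−0.50 (adjusted P = 2.9e-05)), LIG4, the ligase of the classical route (−0.50 (adjusted P = 0.00014)), and RIF1, which opposes resection (−0.28 (adjusted P = 0.003)). With p53 TM compared with p53 wild type, 7 of the 30 were higher and 1 lower, and 3 of the 13 were higher and 0 lower, where 9.29% of all genes were higher and 11.9% lower. The difference between the lists was not tested.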

How the data were processed

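RNA of 30 H1299 cultures was read as ribosome-depleted, stranded total RNA (single reads). Per the labels and the study's methods, the authors aligned reads with STAR 2.5.3a to hg38 and counted them on GENCODE v27 genes with featureCounts of Subread 1.5.2. The strand setting of counting is not given in the sources used here, so reads of overlapping genes may be shared. The deposited values used here are raw read counts per gene. A second deposited table of scaled counts was not used.

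The 43 genes and the other gene lists were chosen with earlier results of these data known. Gene identifiers were matched to symbols for 38904 of 39359 genes (455 unmatched), and coordinates are those of GENCODE v44 (hg38). Libraries were placed in 10 groups by their labels, and 2 libraries with conflicting titles were left out of the main fit. Genes were filtered with filterByExpr, counts scaled by TMM, and 1 factor of all groups fitted with the quasi-likelihood test of edgeR 4.0.16 in R 4.3.3. Adjustment was by Benjamini-Hochberg across the 21335 genes of the fit, and a gene passed at an adjusted P below 0.05. SE is the size of the log2 change divided by the square root of F, and intervals are 95%. Total counts of 32302699 to 71950532 limit precision for genes of low counts, such as FANCF, RAD50 and RAD54B. Promoters came from RefSeq (GRCh38.p14). Python 3.11.15 made tables and figures.

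Replicates were compared before use: over 30 pairs of the same group, chi-square per degree of freedom was 6.08 to 47.4, so none was a duplicate within sampling noise. At 24 h the replicate numbers paired the libraries, with correlations of deviations from the group means of 0.182 to 0.612 in 30 of 30 pairs. At 6 h 5 of 9 were above 0.1. The pairing comes from these correlations alone, and the main fit, with its SE and P values, did not use it. Alternatives were both groupings of 30 libraries, DESeq2 1.42.0, its size factors in edgeR, a minimum of 10 counts in every library, no filter, only the groups compared, a replicate block, and each library left out. The script was tested on simulated counts. Values in every library are given for the 8 lower and 4 higher genes with the smallest P for p53 wild type at 24 h, the 4 with the smallest P for p53 TM against p53 wild type, and BRCA1, BRCA2, FANCD2, CHEK1, ATM and MRE11. XRCC3, EXO1, PALB2 and RAD50 were added after their values were seen.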

Additional observations from a re-analysis of the deposited data

Results flagged for a closer look

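The change with p53 wild type differed between 24 h and 6 h, by a test of the difference itself, for 19 genes, all more negative at 24 h (edgeR's quasi-likelihood test). The log2 differences were −0.85 for BRCA2, −0.78 for BRCA1, −0.77 for RMI2, −0.72 for RAD51AP1, −0.72 for BRIP1, −0.69 for BLM, −0.69 for GEN1, −0.68 for UBE2T, −0.62 for XRCC2 and −0.53 for DNA2. They were −0.53 for EME1, −0.52 for FANCM, −0.52 for FANCL, −0.51 for FANCI, −0.47 for CHEK1, −0.46 for FANCB, −0.46 for FANCD2, −0.45 for FANCA and −0.39 for ATM.

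The pair of 6 h libraries with conflicting titles, outside the main fit, held levels above all pGFP libraries of 6 h for some of the higher genes. The library labelled p53 O6-meG gave 71.5 CPM for RAD51C and 86.2 CPM for MRE11. The library labelled p53 TM gave 90.8 CPM for RAD51C, 38.8 CPM for CHEK2, 95.1 CPM for MRE11 and 39.1 CPM for RAD52. Groups of 3 libraries were too small for a search for single outlying libraries.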

How the results depend on the processing

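The directions of the counts for p53 wild type at 24 h held under all alternatives, while counts near the threshold moved. Shares of all genes under the alternatives are not given here. With the replicate number as a block at each time, the pairing raised the genes lower with p53 TM at 24 h from 7 to 21, those higher than with p53 O6-meG from 10 to 17 and those lower than with p53 O6-meG from 1 to 2, those lower than with p53 wild type from 1 to 2, those higher with p53 O6-meG at 6 h from 1 to 5, those higher with p53 TM at 6 h from 0 to 1, and those lower with p53 wild type at 6 h from 0 to 2. It changed the count of no other comparison with pGFP or p53 wild type by over 1.5 times.

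For p53 wild type at 24 h, 3 genes were higher with no filter (5 in the main fit). At 6 h the lower genes numbered 2 with DESeq2 and with the other grouping of the conflicting pair, 1 with its size factors or at least 10 counts, and 4 with only the groups compared, and the higher genes 2 as labelled, 2 with DESeq2, and 1 with size factors or no filter. For p53 TM against pGFP at 24 h, lower genes numbered 19 with DESeq2, 17 with size factors and 11 with at least 10 counts. At 6 h, p53 O6-meG gave 0 higher genes as labelled and 2 with the other grouping, and p53 TM gave 1 with DESeq2. Genes lower with p53 TM than with p53 wild type numbered 0 as labelled, with no filter and with only the groups compared, and 2 with DESeq2 or at least 10 counts, and the higher genes 7 with only the groups compared. Against p53 O6-meG the lower count was 0 as labelled, with no filter and with only the groups compared, and the higher count 4 and 0 in the last 2 of these. The cause of these changes was not tested.

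Leaving out 1 library at a time gave, for p53 wild type at 24 h, 27 to 29 lower and 4 to 5 higher genes, and at 6 h 0 to 2 and 1 to 4. For p53 O6-meG at 24 h it gave 22 to 27 and 4 to 5, and at 6 h 0 to 2 and 1 to 2. For p53 TM at 24 h it gave 2 to 16 and 2 to 3, with p53 wild type 0 to 2 lower and 14 to 23 higher, and with p53 O6-meG 0 to 1 and 4 to 13. The difference between times had 13 to 22 lower and 0 higher, and pGFP over time 30 to 34 and 0. The RW mutant, p53 TM at 6 h and p53 O6-meG against p53 wild type stayed at 0. Small log2 changes turned sign without 1 library. ATM with p53 TM against pGFP at 24 h ran from −0.069 without pGFP replicate 2 to 0.036 without pGFP replicate 1, and was 0.015 without p53 TM replicate 3. With p53 TM against p53 wild type, MRE11 ran from −0.19 without p53 TM replicate 1 to 0.029 without p53 wild type replicate 1, and RAD52 from −0.15 to 0.033 without the same libraries. Depth limits FANCF, counted below 1 CPM with pGFP and p53 wild type at 24 h.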
